A study of Mus musculus with 3 samples.

Results

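Of 8 genes known from the germ line or the gonad, 3 gave a signal above the array median in a mouse T-lymphoma cell line, and 5 did not on any array. The median was reached on each array by 57.9% to 58.1% of all named genes. The 3 genes were Rhox5, Sohlh1 and Tle6. All 3 were at least 2-fold higher in flippase-deficient cells carrying wild-type human ATP11A than in parental cells. Of the 11596 genes that reached the median on at least 1 array, 0.561% passed that limit. The other 5 of the 8 genes had no such ratio. The 8 genes were chosen by their known role in germ cells, gonad or oocyte and by their signals on these same arrays. Every probe set whose only gene symbol is 1 of the 8 was taken, which gave 9 probe sets among 45101, and 8 genes among 18194 with a name. The median signal of all probe sets on an array was the limit against which each signal was set. Since those signals also led to the choice of genes, the values below describe the arrays and test nothing.

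WR19L is a T-cell lymphoma line of BALB/c origin, and 1 array was run for each of 3 kinds of untreated cells. The parental array held WR19L cells, also labelled W3. The other arrays held DKO cells, a derivative of WR19L without flippase activity, that stably expressed human ATP11A, in the wild-type form on one and as the Q84E mutant on the other. ATP11A is a P4-ATPase, an enzyme that flips phospholipids from the outer to the cytosolic face of the cell membrane. Untransfected DKO cells were not analysed here, so in ratios over parental cells the knockout, the transgene and the derivation of the line cannot be told apart. The promoter of the transgene, and whether a line is a single clone, were not stated in these sources. No value below has a replicate, and no test between groups was possible.

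Germ cells use a set of genes that most somatic cells keep silent. Many of these genes have CpG-rich promoters that are methylated in somatic tissues, and a Polycomb complex with the proteins E2F6, PCGF6, MGA and MAX represses part of the set by binding E-box and E2F motifs. Some germline genes are active in tumours, and Rhox5, first described as Pem, is known from many tumour cell lines. Rhox5 encodes a homeobox transcription factor of the X-linked Rhox cluster that is made in Sertoli cells, the epididymis and placenta. Sohlh1 encodes a basic helix-loop-helix factor of spermatogonia and early oocytes. Tle6 encodes a member of the Groucho family of corepressors and belongs to the subcortical maternal complex of the oocyte.

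The promoters of the 3 genes above the median are shown because their signals were all higher on the same array, and that of Sycp3 because it shares an element with Sohlh1 and Tle6 while its signal lay under the median. Each sequence is the 250 bases upstream of a RefSeq transcription start in build GRCm38.p6, with the E-box CACGTG in capitals. The Rhox5 window lies at chrX:37754358-37754607 on the plus strand, the Sohlh1 window at chr2:25847249-25847498 on the minus strand, the window of the upstream Tle6 start at chr10:81600901-81601150 on the minus strand, and the Sycp3 window at chr10:88459337-88459586 on the plus strand.
Rhox5: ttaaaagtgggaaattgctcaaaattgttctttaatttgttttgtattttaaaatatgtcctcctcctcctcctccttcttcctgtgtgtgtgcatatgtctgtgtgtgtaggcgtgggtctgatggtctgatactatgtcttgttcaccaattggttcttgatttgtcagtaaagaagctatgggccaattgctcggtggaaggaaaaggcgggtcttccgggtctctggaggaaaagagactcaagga
Sohlh1: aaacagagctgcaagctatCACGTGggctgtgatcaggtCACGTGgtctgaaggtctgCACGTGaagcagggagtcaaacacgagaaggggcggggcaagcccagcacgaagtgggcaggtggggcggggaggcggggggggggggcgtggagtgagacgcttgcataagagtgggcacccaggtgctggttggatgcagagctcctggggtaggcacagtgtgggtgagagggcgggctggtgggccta
Tle6: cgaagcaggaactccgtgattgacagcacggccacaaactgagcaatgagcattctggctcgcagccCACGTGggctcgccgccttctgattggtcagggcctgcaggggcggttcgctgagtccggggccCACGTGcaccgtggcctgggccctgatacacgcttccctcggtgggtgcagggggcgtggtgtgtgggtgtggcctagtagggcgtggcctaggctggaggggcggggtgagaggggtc
Sycp3: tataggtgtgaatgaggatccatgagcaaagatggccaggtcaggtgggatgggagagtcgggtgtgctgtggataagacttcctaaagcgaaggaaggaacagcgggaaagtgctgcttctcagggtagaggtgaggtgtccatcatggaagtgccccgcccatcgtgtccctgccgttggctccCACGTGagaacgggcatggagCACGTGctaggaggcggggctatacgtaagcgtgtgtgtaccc

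The element CACGTG, which reads the same on both strands, occurred in 6 of the 8 genes. Sohlh1 held 3 copies, whose first bases lay 231, 211 and 192 bases before the start. Tle6 held 2 copies at its upstream start, 183 and 119 bases before it, and none at its downstream start. Sycp3 also held 2, at 64 and 43 bases, and Ddx4, Mael and Taf7l held 1 each, at 29, 223 and 49 bases. No copy lay in the windows of Rhox5 and Dazl. Of all 32851 RefSeq windows of this length 6.02% held the element, and 8.88% of those with at least the median number of CpG, which was 6. Counted by gene, 6.86% of 27025 genes held it in a window, against 19 of 113 other germline genes (16.8%). The E2F-type motif TCCCGC, searched on both strands, occurred once each in Ddx4, Mael and Sycp3, in 16.9% of all windows and in 30.9% of those with at least the median number of CpG. By gene it was held by 18.8% of all genes and 25 of 113 other germline genes (22.1%), beside 3 of the 8, and none of its matches in the 8 genes overlapped an E-box. The E-box was thus found upstream of genes on both sides of the median signal, and TCCCGC in 3 genes under it. A match describes the letters of the window and is not a measured binding site.

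The Rhox5 window held fewer CpG than that of any of the other 7 genes, the downstream start of Tle6 aside. It held 4 CpG, at percentile 37.8 of all windows, with a GC content of 42.8%. Sohlh1 held 11 CpG at percentile 64.4, and the upstream Tle6 window held 17 at percentile 76.5, while the downstream Tle6 window held 1. The 5 genes under the median held 12 CpG in Sycp3, 14 in Taf7l, 18 in Mael, 20 in Dazl and 31 in Ddx4, the last at percentile 94.8. The methylation of these promoters was not measured.

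**Figure D1:**
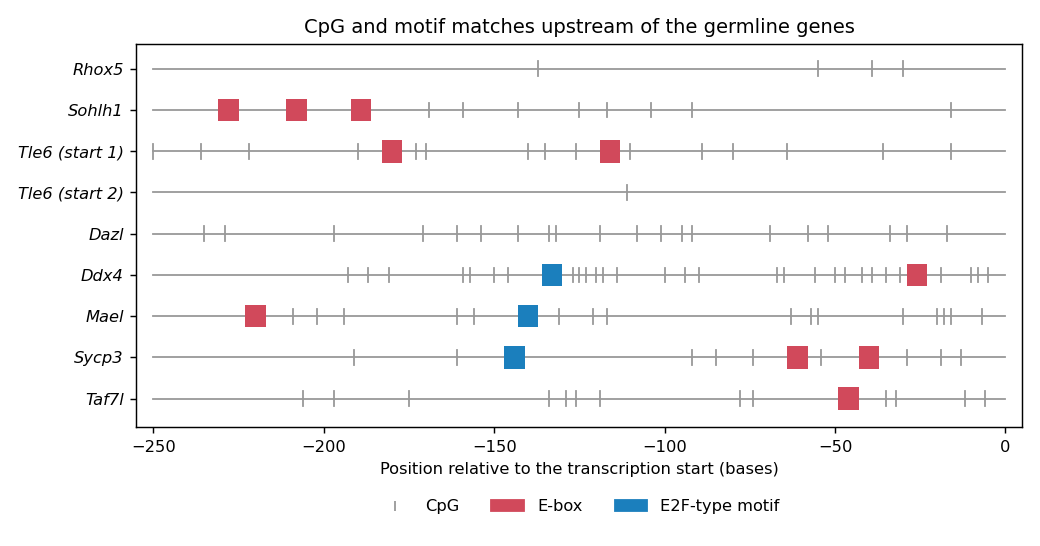
Positions of CpG (grey ticks), the E-box CACGTG (red) and the E2F-type motif TCCCGC (blue) in the 250 bases upstream of each RefSeq start of the 8 genes, with the transcription start at 0. Red marks appear in 6 of the 8 genes, and the Rhox5 window holds 4 CpG and neither motif.

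Among the transcription factors, Rhox5 was higher with wild-type ATP11A than in either of the other lines. Its signal was 462 in parental cells, 1845 in the line with wild-type ATP11A and 266 in the line with the Q84E mutant. These signals lay at percentiles 77.3, 90.4 and 71.1 of all probe sets on their arrays. The wild-type array was thus the high one, and the Q84E array lay below the parental array. The signal was 3.99-fold higher with wild-type ATP11A than in parental cells, a log2 ratio of 2.0. Q84E cells gave a signal 6.93-fold below that of wild-type ATP11A cells, a log2 ratio of -2.79. Q84E cells were 1.74-fold lower than parental cells, a log2 ratio of -0.80. The ratio of Q84E over wild-type was the lowest of the 11596 genes compared, and that of wild-type over parental was the 7th highest. Rhox5 has a single probe set, so no other part of the transcript checks these values.

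The size of these ratios can be set against the technical error alone. In genes with 2 probe sets of similar level, the log2 ratios of the 2 differed with an SD, scaled to 1 probe set, of 0.17 to 0.19 for levels between the 75th and 90th percentile, where Rhox5 and Tle6 lie on average. Between the 50th and 75th percentile, where Sohlh1 lies, it was 0.31 to 0.35. All 3 Rhox5 ratios were more than 4 times that error. How far separate cultures of a line differ is not part of it.

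Sohlh1 had its highest signal on the same array. The signal was 83.7 in parental cells, 382 with wild-type ATP11A and 128 with the mutant, at percentiles 58.7, 75.3 and 62.9. It was 4.57-fold higher with wild-type ATP11A than in parental cells (log2 ratio 2.19), the 3rd highest ratio of all genes compared. Q84E cells gave a 2.99-fold lower signal than that line (log2 ratio -1.58), the 7th lowest. Between Q84E and parental cells the signal differed 1.53-fold (log2 ratio 0.61), which is under 2 times the probe set error at this level. The parental Sohlh1 signal of 83.7 was the value of these genes nearest above the limit of 50.3, and the parental Taf7l signal of 33.9 was the nearest below it.

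Tle6, the maternal complex gene of the 3, was higher in both DKO lines. Its signal was 425 in parental cells, 1049.8 with wild-type ATP11A and 776 with the mutant, at percentiles 76.4, 85.6 and 82.3. The log2 ratio over parental cells was 1.30 with wild-type ATP11A, a 2.47-fold difference, and 0.87 with Q84E, a 1.83-fold difference. Q84E cells were 1.35-fold lower than wild-type ATP11A cells (log2 ratio -0.44). The wild-type array was the highest for Tle6 too, but the Q84E array lay nearer to it than to the parental array, unlike for Rhox5 and Sohlh1.

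At least 2-fold higher signals with wild-type ATP11A than in parental cells were thus found for 3 of the 8 genes, the only ones of them with a ratio. The other 5 lay under the median on every array and were not among the genes compared. Of all genes compared 0.561% passed the same limit. None of the 3 was at least 2-fold lower there, where 0.888% of the genes compared were. For Q84E over wild-type ATP11A, 2 of the 3 with a ratio were at least 2-fold lower, against 0.319% of the genes compared. None of the 3 was at least 2-fold higher, against 1.03%. That background depends on the scaling, since 119 genes were higher and 37 lower as deposited, 68 and 64 with quantile normalization, and 65 and 66 with a common median. None of the 3 genes with a ratio differed at least 2-fold between Q84E and parental cells, where 1.63% of the genes compared were higher and 0.793% lower. These contrasts entered the choice of the genes, so the counts are a description. The 3 comparisons share arrays, and a high value on the wild-type array alone enters the ratios of wild-type over parental and of Q84E over wild-type with opposite signs. Both limits were passed by 10 genes of 11596, or 0.0862%, with Rhox5 and Sohlh1 among them. In RNA from whole cultures, a change in the share of cells with a transcript and a change in RNA per cell cannot be told apart.

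**Figure D2:**
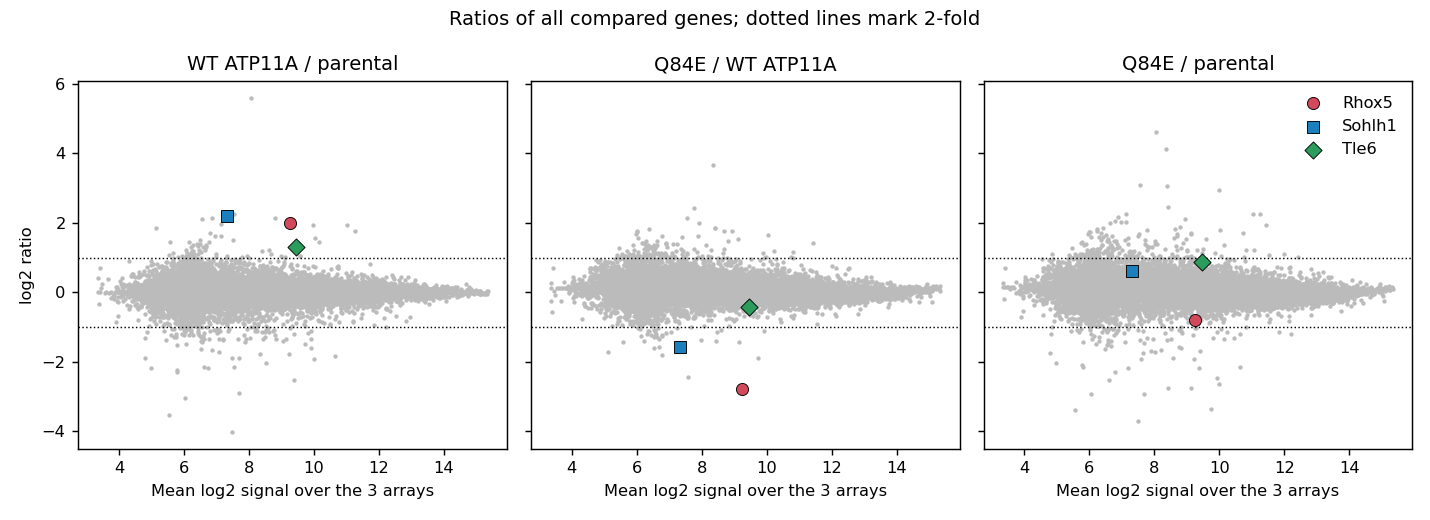
log2 ratio of each of the 11596 genes compared (grey points) against its mean log2 signal over the 3 arrays, for the 3 comparisons, with Rhox5, Sohlh1 and Tle6 marked and dotted lines at 2-fold. Rhox5 is at 2.0, -2.79 and -0.80 from left to right, and Tle6 at 1.30, -0.44 and 0.87.

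The RNA-binding and meiotic genes lay under the median on every array. Dazl encodes an RNA-binding protein that controls translation in germ cells. On the parental, wild-type ATP11A and Q84E arrays its brighter probe set gave 18.6, 3.32 and 2.90 and its dimmer one 1.10, 1.56 and 1.97. Ddx4, the mouse Vasa helicase of the germ granule, gave 1.91, 4.63 and 0.594. Mael, the maelstrom protein of the piRNA pathway that silences transposons, gave 15.9, 13.2 and 16.5. All of these lay under percentile 29 of their arrays, and no order among such signals is read.

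Sycp3, a component of the axial element of meiotic chromosomes, gave 0.848 in parental cells, 8.44 with wild-type ATP11A and 23.5 with the mutant. Taf7l, a germ cell paralog of a subunit of the general transcription factor TFIID, gave 33.9, 31.1 and 10.3, at percentiles 41.0, 39.3 and 20.1. Both stayed under the median on all 3 arrays, so their differences lie in the range where signals carry no measured ratio, and no fold is given. The name of a germline gene expressed in the lymphoma therefore matched the signals of 3 of the 8 genes at this limit. Between 57.9% and 58.1% of all named genes reached the same limit on each array. A signal under the median does not show that a transcript is absent. The probe set that stood for Cd3e, a T cell receptor subunit, also gave only 6.21, 13.5 and 8.88. Whether these cells hold the Cd3e transcript was not tested.

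**Figure D3:**
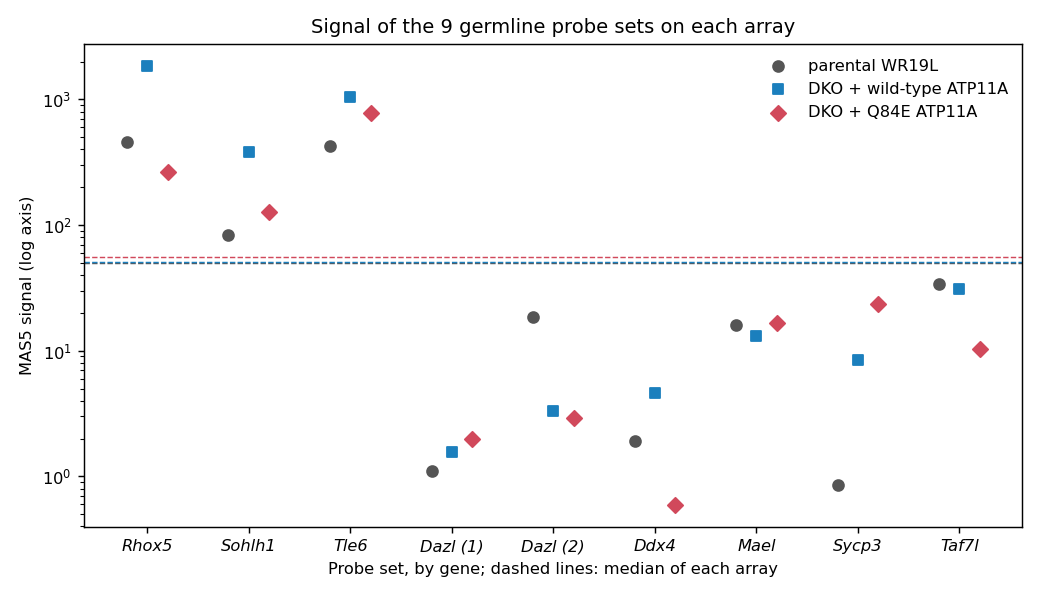
MAS5 signal on a log axis of the 9 probe sets on the parental (circles), wild-type ATP11A (squares) and Q84E ATP11A (diamonds) arrays, with the median of each array as a dashed line at 50.3, 50.5 and 55.5. Rhox5, Sohlh1 and Tle6 lie above the lines on every array and the probe sets of the other 5 genes below them.

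Other germline genes were examined through 8 lists, which held 142 genes beside the 8, 111 of them with a probe set. On the parental, wild-type ATP11A and Q84E arrays 34, 30 and 31 of the 111 reached the median, or 30.6%, 27.0% and 27.9%. Of all named genes 57.9%, 58.1% and 57.9% did so, and of the 8 genes 3 of 8 on each array. The shares of the listed germline genes lay below those of all genes on each of the 3 arrays.

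The wild-type array was not high for these lists as a whole. The summed signal of the 111 genes was 14072 on the parental array, 13739.7 with wild-type ATP11A and 14251 with Q84E. Among the 42 that reached the median on at least 1 array, none was at least 2-fold higher with wild-type ATP11A than in parental cells and 1 was lower, with a median log2 ratio of 0.01 beside 0.006 for all genes compared. For Q84E over wild-type, 1 was higher and none lower, and the median was 0.14 beside 0.046 for all genes. That value of 0.14 is also the difference between the medians of the 2 arrays, to which low signals were set. For Q84E over parental, 3 were higher and 1 lower.

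The lower gene was Cpeb1, which encodes a regulator of mRNA translation in oocytes. Its signals of 424, 94.7 and 164, with the arrays in the same order, gave log2 ratios over parental of -2.16 and -1.37. Cpeb1 was thus lowest on the array on which Rhox5, Sohlh1 and Tle6 were highest. Named after their values were seen, the 3 higher genes of Q84E over parental were Meiob, a meiotic recombination gene, at 1.05, Gtf2a1l, a testis form of a TFIIA subunit, at 1.01, and Oosp1, an oocyte-secreted protein gene, at 1.16. Oosp1 was also the higher gene of Q84E over wild-type, at a bound of 1.43. Their signals were at most 136 on any array.

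Of the piRNA and nuage list 5, 3 and 4 of 17 genes reached the median on the 3 arrays in the same order. Tdrkh, a mitochondrial tudor protein, was 1 of them, at 1198, 1069 and 889, and Tdrd7 gave 171, 122 and 128 and Asz1 85.6, 65.6 and 80.3. Meiotic genes reached it in 9, 7 and 6 of 26, with Psmc3ip, a recombination cofactor, at 1137, 1123 and 1067 Mei4 at 672, 706 and 553 and Mnd1 at 213, 210 and 236. Germ cell and oocyte transcription factors did so in 8, 10 and 9 of 17, with Tbpl1, a TATA-binding protein relative, at 2533, 2674 and 2637, Taf4b at 1068, 1045 and 1055 and Mybl1 at 85.3, 134 and 132. Sohlh2, the partner of Sohlh1, was not high on the same array, at 110, 85.5 and 101. Rfx2 of the same list was also lowest there, at 107, 67.7 and 122. Nobox, at 65.0, 98.6 and 52.4, and Figla, at 31.3, 84.4 and 65.8, were highest there. Their log2 ratios over parental were 0.60 and, as a bound, 0.75. Of the spermatid genes 3, 1 and 2 of 15 reached it. Odf2 was 1 of them, at 1277, 1437 and 1628, and Spata3 gave 53.3, 42.0 and 18.9. Acrv1, at 46.2, 38.9 and 45.3, and the protamine gene Prm1, at 29.6, 43.8 and 17.3, stayed under the median. Prm2, also a protamine gene, reached the median only with Q84E, at 69.9, and Gapdhs only on the parental array, at 79.3. Of the germ cell RNA-binding list 4 of 9 did so on each array, with Elavl2 at 432, 396 and 446 and Dnd1 at 61.6, 63.7 and 57.4 beside Cpeb1, and of the X-linked testis genes none of 8.

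None of the measured relatives of the 3 genes was 2-fold higher with wild-type ATP11A than in parental cells. Rhox6, Rhox9 and Rhox13 were the other genes of the X-linked cluster with a probe set, and they gave 14.7, 14.3 and 11.4 with wild-type ATP11A, all under the median. Rhox9 reached the median only with Q84E, at 61.0. Of 5 other TLE genes 3, 3 and 4 reached the median on the 3 arrays. Tle3, a Groucho corepressor, gave 2559, 2709 and 2351. Tle5, a short member of the Groucho family near Tle6 on chromosome 10, gave 1654, 1555 and 2165, and Tle4, also a corepressor, gave 328, 521 and 482. Tle4 was 0.67 above parental with wild-type ATP11A on the log2 scale. Among partners of Tle6 in the maternal complex, Nlrp5 gave 2.32, 2.37 and 5.83, Padi6 25.7, 46.1 and 14.9, Ooep 43.4, 64.5 and 34.8, and Khdc3 62.0, 89.8 and 52.3. Zbed3, also reported in that complex, was well above the median at 1619.6, 1659.6 and 1797. None of these 5 was 2-fold apart between arrays where measured. Of the whole list of maternal complex and oocyte genes 5 of 16 reached the median on each array, among them Zar1, a maternal effect gene, at 157, 187 and 161 and the oocyte growth factor gene Gdf9 at 77.4, 78.2 and 130.

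**Figure D4:**
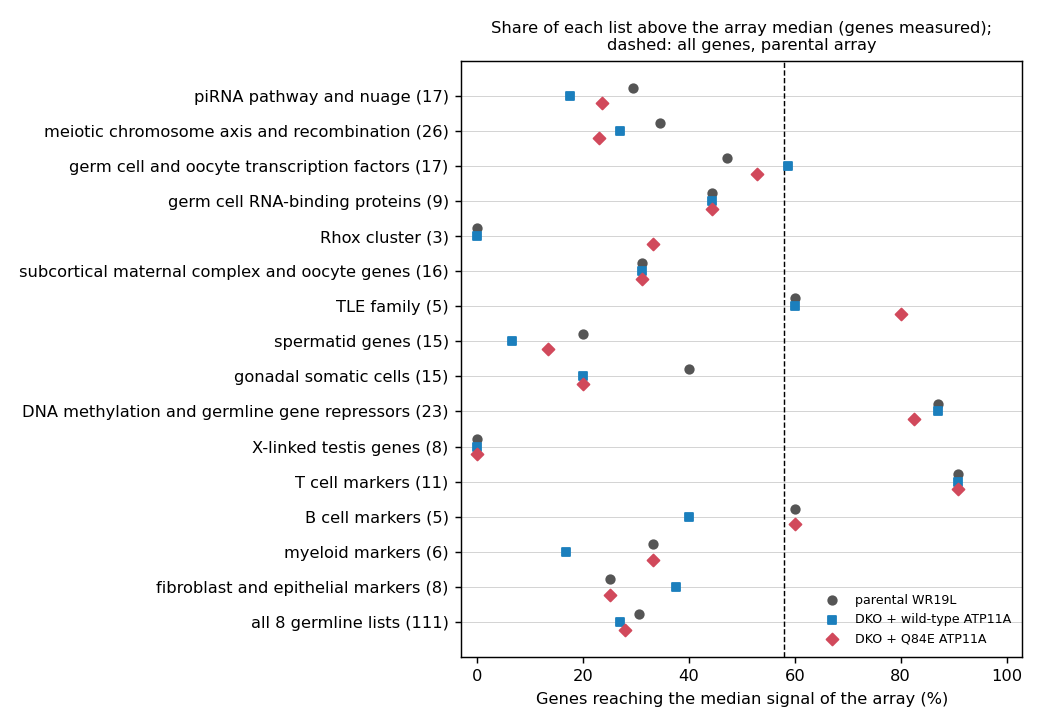
Share of the genes of each list, in percent, that reached the median signal of the parental (circles), wild-type ATP11A (squares) and Q84E ATP11A (diamonds) arrays, with the number of genes measured in brackets and the share of all genes on the parental array, 57.9%, as a dashed line. The 8 germline lists together lie at 27.0% to 30.6%, and T cell markers at 90.9%.

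Genes of DNA methylation and of the repressors of germline genes mostly gave signals above the median. Of 23 with a probe set, 20, 20 and 19 reached the median, and none was 2-fold apart in any comparison. Trim28, a corepressor of transposons and imprinted loci, gave 14197, 13955 and 13675, and the chromatin remodeller gene Hells 6831, 7684 and 7033. Dnmt1, the maintenance methyltransferase, gave 6289, 6837 and 8052, and its cofactor Uhrf1 6463, 6573 and 6588. The de novo methyltransferase gene Dnmt3b gave 1321, 1022 and 832, a log2 ratio over parental of -0.37 and -0.67, while Dnmt3a gave 716, 559 and 748. Of the E-box and E2F complex, E2f6 gave 3480.4, 2638 and 2918, Pcgf6 3058, 3143 and 3148, Mga 562, 686 and 633, and Max 1631, 1803 and 1438. With wild-type ATP11A the log2 ratios over parental were -0.40 for E2f6, 0.14 for Max and 0.29 for Mga. For Q84E over wild-type they were 0.15, -0.33 and -0.12 in the same order of genes. The values of 0.15 for E2f6 and -0.12 for Mga lie under 2 times the probe set error at their levels, 0.1 and 0.17. No lowest array of E2f6 is therefore read. By the same measure E2f6 was highest on the parental array. Its log2 ratios over parental, -0.40 with wild-type ATP11A and -0.25 with Q84E, were more than 2 times the errors of 0.1 and 0.11. That error does not cover differences between cultures. For Max, Mga and Pcgf6 no lowest or highest array is read.

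Markers of other cell types were set beside these signals. T cell markers reached the median in 10 of 11 genes on every array, with Ptprc at 22592, 20742 and 21642, Lat at 16203, 17599 and 16834 and Cd3d at 6898, 4272 and 6976. Trat1, an adaptor of the T cell receptor, gave 1451, 575 and 213, so unlike Rhox5 it was below parental cells in both DKO lines. Of the gonadal somatic markers 6, 3 and 3 of 15 reached the median, and their summed signal was 652, 641 and 672 on the parental, wild-type ATP11A and Q84E arrays. Foxl2, a granulosa cell factor, gave 137, 166 and 174, Fshr, the FSH receptor gene of Sertoli and granulosa cells, 91.0, 77.3 and 87.8, and Star, a gene of steroid-producing cells, 70.0, 94.7 and 75.8. Gata4, Inhba and Cyp11a1 reached the median on the parental array alone, at 77.2, 62.4 and 51.1. The remaining 9 were under it on every array, among them the Sertoli cell genes Sox9, Amh, Dhh and Wt1, at 6.40, 25.9, 47.5 and 17.7 with wild-type ATP11A. What these markers add to the signals of the 3 genes was not tested. B cell and myeloid markers reached it in 3, 2 and 3 of 5 and in 2, 1 and 2 of 6. Fibroblast and epithelial markers did so in 2, 3 and 2 of 8, with summed signals of 233, 397 and 299. Epcam, an epithelial adhesion gene, was highest with wild-type ATP11A, at 28.2, 106 and 33.8, and its log2 ratios of 1.07 and -0.93 are bounds. Its part in the signals of Rhox5, Sohlh1 and Tle6 was not tested. As a check of the labels, mouse Atp11a gave 478, 253 and 244, lower on both DKO arrays than on the parental array. The 2 DKO arrays gave similar signals, so the check cannot tell which of them is Q84E.

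The genes around the 3 on their chromosomes mostly differed by less than 2-fold. Among the 5 measured genes on each side of Rhox5, 5 of 10 reached the median on at least 1 array. The log2 ratios of wild-type over parental, which 4 of them had, ran from -0.10 to 0.18. Those of Q84E over wild-type ran from -0.03 to 0.36. The neighbours included Ndufa1, a subunit of respiratory complex I, and Zbtb33, which encodes the methyl-DNA-binding protein Kaiso. Around Sohlh1, 6 of 10 reached the median, at -1.29 to 0.57 for wild-type over parental and -0.43 to 1.19 for Q84E over wild-type. The next gene, the potassium channel gene Kcnt1, gave 28.8, 74.6 and 32.4, the same order of arrays as Sohlh1 by bounds of 0.57 and -0.43. Nacc2, a transcriptional repressor, moved the other way, at 127, 52.0 and 119. Around Tle6, 8 of 10 reached the median, at -0.82 to 0.42 for wild-type over parental and -0.31 to 0.98 for Q84E over wild-type. Sirt6, at 209, 118 and 234, gave both the -0.82 and the 0.98. BC025920, at 33.1, 67.4 and 113, was the 1 neighbour of Tle6 past 2-fold, by a bound of 1.17 for Q84E over parental.

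**Figure D5:**
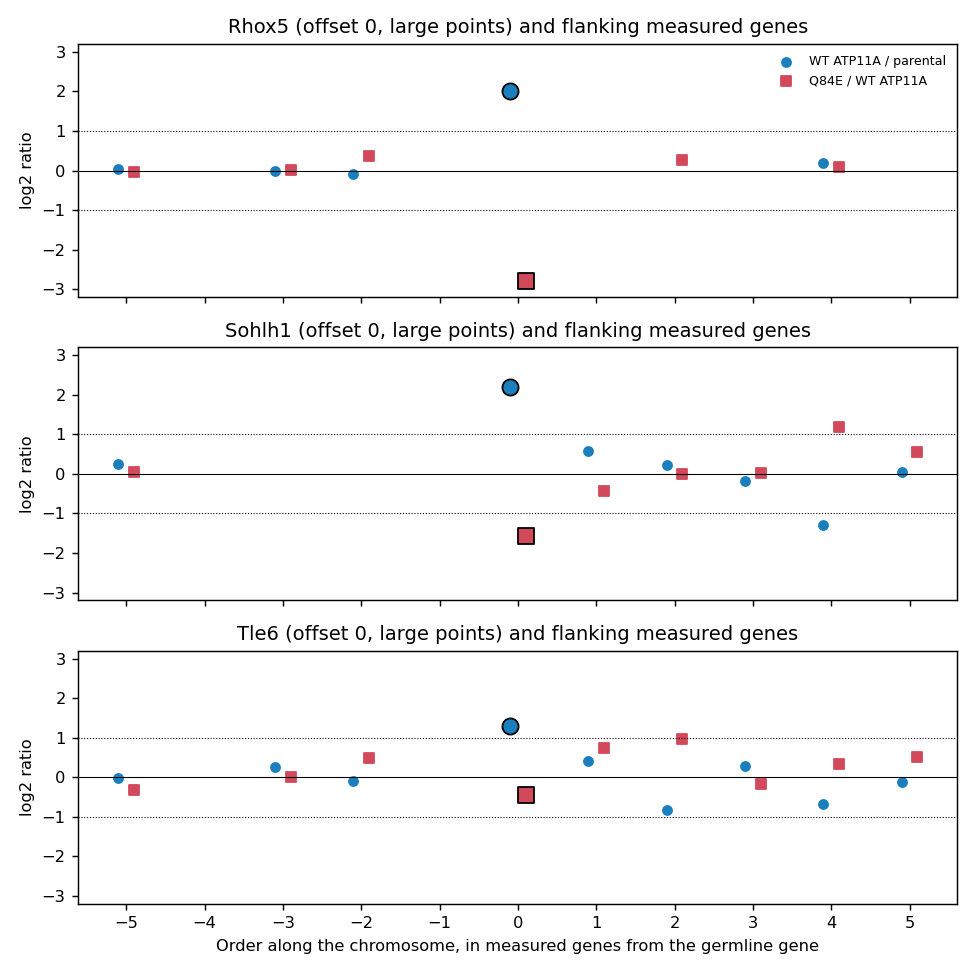
log2 ratio of wild-type ATP11A over parental (circles) and Q84E over wild-type ATP11A (squares) for Rhox5, Sohlh1 and Tle6 (large points at 0) and the measured genes on each side in chromosome order, with dotted lines at 2-fold. Genes under the median on all arrays are left out, and Nacc2, at -1.29 and 1.19, is the only neighbour shown past 2-fold.

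The likeness of other genes was measured as the Euclidean distance between log2 signals centred on their mean over the 3 arrays, among 6886 genes above the median on all arrays and above the 75th percentile on at least 1. Rhox5 and Sohlh1 lay 1.08 apart, Sohlh1 and Tle6 0.85, and Rhox5 and Tle6 1.71. The genes nearest to Rhox5 were Cyp2c55, a cytochrome P450, at a distance of 1.10 with signals of 265, 376 and 69.8, Ccnyl1 at 1.22 and Chmp3 at 1.44. Rhox5 thus lay about as near to Sohlh1 as to any of these genes. Nearest to Sohlh1 among the 6886 genes were S100a4, a calcium-binding protein gene, at 0.86, Alad at 1.0 and Ears2 at 1.01. Dimmer genes were left out by the limit at the 75th percentile. Among these were Cpne6, at 69.5, 172 and 74.5, and Tmem231, at 70.2, 174 and 86.0, which were also highest with wild-type ATP11A. Tle6 had closer neighbours. Fxyd5, a regulator of the sodium pump, at 326, 610 and 548, and Atf5, a stress transcription factor, at 311, 647 and 636, were both at 0.29, and Pmf1 was at 0.36. With 3 arrays such likeness is easily met, and it is a description.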

How the data were processed

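The authors deposited 1 linear intensity, a MAS5 signal according to the submitters' processing notes, for each probe set. Scanner, software version and genome build were not stated there. The labels' protocols give biotinylated cRNA from 250 ng of total RNA. Each array had a trimmed mean of 500.0 without 2% at each end, so 1 factor per array had been applied, and a shift of many genes can be spread over the others by it. Names came from the platform's annotation, in which 34958 probe sets had 1 symbol, 932 several and 9211 were not listed. The brightest probe set stood for a gene. A gene was compared if it reached the 50th percentile on at least 1 array. Lower signals were set to that percentile before log2 ratios were taken, and a ratio against such a signal is a bound.

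The 8 genes and the 15 lists were chosen with earlier results of these data known. Genes named from a list were at least 2-fold apart and above the 75th percentile on the brighter array, or had the highest levels, with up to 3 per list. Other list genes, among them Prm1, Sohlh2, the Sertoli cell genes and the methyltransferases and repressors beside Dnmt1, and the relatives, partners and neighbours of the 3 genes were named for their role or after values were seen. Promoter windows and chromosome order came from RefSeq, GRCm38.p6, and all 8 genes matched. The steps were tested on simulated data, with changes larger than 2-fold put only into genes above the 75th percentile. The simulated noise was below the probe set error at the level of Sohlh1. That test therefore does not cover dim genes or ratios near 2-fold. Calculations used Python 3.11.15, numpy 2.4.6 and pandas 2.3.3. The alternatives were 2 scalings, 3 floors and 2 choices of probe set.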

Additional observations from a re-analysis of the deposited data

How the results depend on the processing

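The numbers of the 8 genes past 2-fold, 3 higher with wild-type ATP11A than in parental cells and 2 lower with Q84E, held under all 7 alternatives. Several of these could not have changed them. Rhox5, Sohlh1 and Tle6 have 1 probe set each, so the 2 choices of probe set left their ratios as they were. Rhox5 and Tle6 also lay above the 60th percentile on every array, so no floor could move their ratios. The number that reached the limit stayed at 3 with wild-type ATP11A and with Q84E. On the parental array it was 4 at the 40th percentile, where Taf7l entered, and 2 at the 60th, where Sohlh1 dropped out; without a floor there is no limit to reach. Over all settings the log2 ratio of wild-type over parental cells ran from 1.98 to 2.0 for Rhox5, 2.06 to 2.19 for Sohlh1 and 1.29 to 1.30 for Tle6, and that of Q84E over wild-type from -2.93 to -2.79, -1.72 to -1.58 and -0.57 to -0.44. The floor at the 60th percentile makes the Sohlh1 ratios over parental bounds.

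The counts over all genes moved. For Q84E over wild-type, the genes at least 2-fold higher and lower numbered 119 and 37, and 68 and 64 with quantile normalization, 65 and 66 with a common median, 306 and 128 with a floor at the 40th percentile, 48 and 12 at the 60th, and 467 and 334 without a floor. With the mean over probe sets 73 were lower. For Q84E over parental the 189 higher became 119 with quantile normalization, 111 with a common median, 380 and 98 with floors at the 40th and 60th percentile and 571 without one, and the 92 lower became 180, 59 and 391 under these floors. For wild-type over parental cells the 65 higher became 191, 27 and 395 and the 103 lower 236, 60 and 421 under the same floors, and 102 were higher with the mean over probe sets. The 34, 30 and 31 other germline genes that reached the median on the parental, wild-type ATP11A and Q84E arrays became 53, 49 and 47 at the 40th percentile, and 16 and 18 on the first 2 at the 60th. The floors and the choice of probe set change which dim genes enter, and for the scalings the cause was not tested.

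No paired analysis was possible because each group has 1 array, so none was left out. Ratios near the floor carry the largest error, and 7 of the 8 genes rest on 1 probe set each.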
